A study of Rattus norvegicus with 18 samples.

Results

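The genes described here are 10 genes that mark the choroid plexus, Ttr, Kl, Folr1, Clic6, Kcne2, Otx2, Aqp1, Sostdc1, Slc4a5 and Tmem72, out of 38445 genes counted in RNA-Seq libraries of the rat hippocampus. They were chosen by symbol, as genes with high expression in choroid plexus epithelium, with earlier results of these data known. The libraries came from the dorsal hippocampus of 18 adult male Sprague Dawley rats, which were fed a Lieber-DeCarli liquid diet and nothing else. The study asked which hippocampal genes change with chronic ethanol and with its withdrawal. The 6 control rats received the diet with 0% ethanol for 16 days. The 6 ethanol rats received it with 9% ethanol, after a gradual introduction, for 16 days and were not withdrawn. The 6 withdrawal rats received the 9% diet for 15 days and then the control diet for 24 h. Each rat gave 1 library. The dorsal hippocampus was dissected as bulk tissue, with no sorting of cells.

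The choroid plexus is a folded epithelium over a stroma with leaky capillaries that hangs in the brain ventricles and secretes cerebrospinal fluid. In the lateral ventricle it lies along the fimbria, next to the hippocampus. Its epithelial cells make and release transthyretin, the carrier of thyroxine and of the retinol-binding protein, and they move water, bicarbonate, chloride, potassium and folate between blood and cerebrospinal fluid. The ependyma, a ciliated layer, lines the ventricle walls beside it and has a different set of marker genes.

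The total count per library ranged from 30873228 to 42679748 read pairs on genes, with a median of 36302755. The libraries carried index sequences of 3 sets, of which 1 held every control rat and no other, a second held every ethanol rat with withdrawal rats 1 and 2, and the last held withdrawal rats 3 to 6. The control group and its index set therefore cannot be told apart. In withdrawal rats 4 and 5 the choroid plexus genes stood apart from all other libraries, as described below, and the comparisons that include the withdrawal rats are given with and without them. Markers of hippocampal neurons were present in every library, at a summed level of 1811 to 3833 CPM (a gene's count relative to the TMM-normalized library size) in the other 16 rats. The sum was 3317 CPM in withdrawal rat 4 and 1216 CPM in withdrawal rat 5.

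The promoter of Ttr is shown because Ttr gives most of the reads of the group and the other genes are set against it below. RefSeq windows were at hand for 5 of the 10 genes, namely Ttr, Kl, Aqp1, Slc4a5 and Tmem72. The 250 bases before the annotated start of Ttr on build GRCr8, chr18:12218508-12218757, strand +, read 5′ to 3′ as follows, in lower case throughout since no motif was found in them.

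Ttr promoter: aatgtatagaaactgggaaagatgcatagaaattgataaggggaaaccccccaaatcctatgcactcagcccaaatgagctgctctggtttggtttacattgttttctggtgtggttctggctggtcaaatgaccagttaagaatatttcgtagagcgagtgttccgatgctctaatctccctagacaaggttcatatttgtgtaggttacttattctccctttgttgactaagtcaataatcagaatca

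The OTX-type motif TAATCC, searched on both strands, was in 7.17% of 33469 rat promoter windows of 250 bases before and 50 bases after a start. The FOX-type motif TGTTTAC was in 3.78% of them. Neither of these strings was in any of the 5 windows. A match of either motif cannot lie within a match of the other, and a missing match says only that these letters are not in this window.

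Transthyretin mRNA was by far the most abundant of the 10. Ttr (GeneID 24856, Rnor_6.0, 18:15532963-15542180, strand -) ranged from 960 to 2006 CPM in the control rats with a median of 1435 CPM. In the ethanol rats it ranged from 1227 to 4733 CPM, with a median of 2385 CPM. In the withdrawal rats the lowest value was 20.4 CPM, the median 1234 CPM and the highest 4679 CPM. The groups overlapped. Ethanol rats 1, 4 and 6 lay above every control rat, at 4733, 3077 and 4341 CPM, and the other 3 ethanol rats lay within the control range. Withdrawal rats 6 and 2 lay above every control rat, at 4679 and 2140 CPM, and withdrawal rats 4 and 5 lay far below, at 21.8 and 20.4 CPM. As mean ± SD, Ttr was 1481 ± 366 CPM (n = 6) in control, 2755 ± 1528 CPM (n = 6) in ethanol and 1555 ± 1737 CPM (n = 6) in withdrawal rats.

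Genes for ion and water transport also had their highest medians in the ethanol rats. Clic6 (GeneID 304081, 11:32655653-32698004, strand +), a chloride intracellular channel protein, had medians of 60.0, 108 and 57.7 CPM in control, ethanol and withdrawal rats, and its values ran from 38.9 to 76.1 CPM in control, from 64.8 to 208 CPM in ethanol and from 1.98 to 237 CPM in withdrawal. Slc4a5 (GeneID 297386, 4:114918488-115002290, strand +), a sodium bicarbonate cotransporter, had medians of 43.1, 94.4 and 46.2 CPM. It ran from 31.2 to 62.7 CPM in control and from 58.6 to 154 CPM in ethanol rats, so 4 ethanol rats lay above every control rat. In withdrawal it ran from 0.586 to 159 CPM. Aqp1 (GeneID 25240, 4:85551503-85563683, strand +), the water channel aquaporin-1, had medians of 27.5, 52.2 and 26.96 CPM. Its control values were 20.2 to 38.9 CPM, its ethanol values 34.4 to 83.9 CPM and its withdrawal values 1.23 to 92.5 CPM. Kcne2 (GeneID 171138, 11:32434786-32447264, strand +), an accessory subunit of potassium channels, had medians of 18.0, 35.7 and 19.4 CPM. The lowest and highest Kcne2 values were 12.4 and 25.3 CPM in control, 18.1 and 58.2 CPM in ethanol and 3.53 and 60.5 CPM in withdrawal. For each of these 4 genes the 3 highest ethanol rats were rats 1, 4 and 6, and the highest withdrawal rat was rat 6.

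Receptors and secreted factors were the next group. Kl (GeneID 83504, 12:942974-987206, strand +) encodes klotho, a co-receptor of a hormone-like fibroblast growth factor, and its extracellular part is shed. It ranged from 30.7 to 65.3 CPM in control (median 46.4), from 54.0 to 185 CPM in ethanol (median 110) and from 0.698 to 168 CPM in withdrawal rats (median 44.5). Folr1 (GeneID 171049, 1:166934457-166945864, strand -), the folate receptor alpha that carries folate into cerebrospinal fluid, had medians of 20.2, 36.2 and 18.4 CPM in the 3 groups. Its extremes were 13.9 and 27.1 CPM in control, 18.98 and 58.6 CPM in ethanol, and 1.78 and 67.0 CPM in withdrawal. Sostdc1 (GeneID 266803, 6:55812820-55816994, strand +), a secreted antagonist of BMP and Wnt signaling, had medians of 30.2, 47.9 and 25.7 CPM. Its values reached from 19.2 to 38.6 CPM in control, from 26.9 to 87.0 CPM in ethanol and from 0.586 to 89.0 CPM in withdrawal. Tmem72 (GeneID 362424, 4:148819906-148845199, strand -), a transmembrane protein, had medians of 27.7, 57.0 and 28.0 CPM. It ran from 22.4 to 42.3 CPM in control, from 31.1 to 93.3 CPM in ethanol and from 0.391 to 103 CPM in withdrawal. For no gene of the group were control and ethanol, or control and withdrawal, free of overlap.

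**Figure D1:**
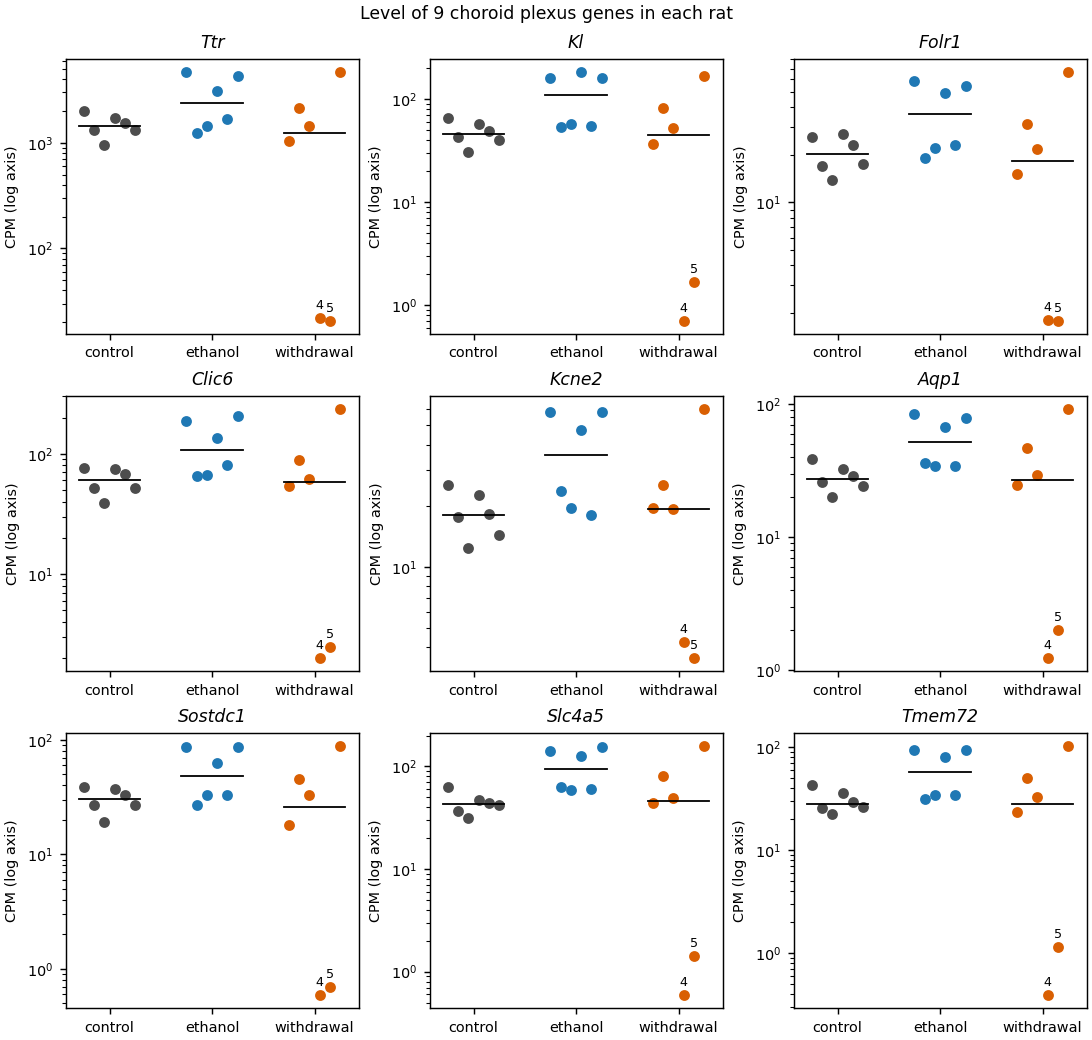
CPM of 9 choroid plexus genes (vertical log axes) in each of the 18 rats by group, with 1 point per rat and the group median as a black line. Withdrawal rats 4 and 5, marked by number, sit below the other 16 rats in all 9 panels, for Ttr at 21.8 and 20.4 CPM against 960 to 4733 CPM.

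Otx2 (GeneID 305858, 15:25500037-25511619, strand -), a homeobox transcription factor of choroid plexus epithelium, was the one gene of the group that did not pass the filter on low counts. It had 0 counts in 13 of 18 rats, and its highest value was 2 counts in a rat. A second entry without a symbol (GeneID 100911492, 15:25515739-25527321, strand -) lies beside it, and each of the 10 exon starts of Otx2 has a counterpart there at an offset of 15702 bases. That entry held 0 to 4 counts per rat. The counting left out pairs with more than 1 mapping position, so the level of Otx2 is uncertain, and the part of the second entry in its near absence was not tested.

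Compared per length, as CPM per kilobase of exon, Ttr had 1954 ± 483 (SD, n = 6) in the control rats. Clic6 came next, with 27.1 ± 6.75 CPM per kilobase, followed by Sostdc1 with 18.7 ± 4.51. The remaining levels were 13.5 for Kl, 13.3 for Folr1, 12.2 for Slc4a5, 10.8 for Aqp1, 8.96 for Tmem72 and 7.11 for Kcne2. From Kl to Kcne2, neighbors in this order differed by less than the SD between control rats. Within a rat the order was more regular, since Slc4a5 lay above Aqp1 and Aqp1 above Tmem72 in 16 of the 16 rats other than withdrawal rats 4 and 5, but Folr1 lay above Slc4a5 in 5 of them.

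In withdrawal rats 4 and 5 the counts of the group were close to absent. The 10 genes together took 0.116% to 0.569% of all counts in the other 16 rats and 0.00327% and 0.00361% in these 2. All 9 genes that passed the filter lay below each of the other 16 rats in both, against 396 of the 17853 genes tested (2.22%). Rats 4 and 5 were set apart because of their low levels of these same genes. The shares here and in the next paragraph therefore describe that choice and are not a test. Ttr was at 1.347% and 1.26% of its median over the other 16 rats, Tmem72 at 1.15% and 3.39%, and Slc4a5 at 0.99% and 2.41%. Kcne2 was the least reduced, at 4.24 and 3.53 CPM (152 and 131 counts), which were 20.1% and 16.7% of its median. Folr1 came next, at 7.87% and 7.70%. In bulk tissue, fewer cells of a type and less RNA per cell cannot be told apart.

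Both rats lay under 0.1 of the lowest of the other 16 rats in 31 genes (0.174% of those tested), among them 7 of the 9 genes of the group, all but Folr1 and Kcne2. Of these 31 genes, 14 had a median of 5 CPM or more over the other rats. Besides the 7, these were F5 (coagulation factor V), Cldn2 (claudin-2, a tight junction protein of leaky epithelia) and Slc16a8 (a lactate transporter), which were on a list of other choroid plexus epithelium genes, and Slco1a5 (an organic anion transporter), Fyb2, Cltrn and Cnmd. F5 had a median of 103 CPM in the other rats and 1.56 and 1.29 CPM in rats 4 and 5, and Slco1a5 had 21.8 CPM against 0.503 and 0.35 CPM.

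Other lists of marker genes were less reduced in these rats. In the list of 28 other choroid plexus epithelium genes, 20 lay below the other 16 rats in both rats 4 and 5, and the median gene was at 27.1% and 35.3% of its usual level. Enpp2 (autotaxin), the most abundant of them, kept 177 and 183 CPM against a median of 1017 CPM. Of 11 ependyma genes, 3 lay below the other rats, and the list's summed level was 84.9 and 76.4 CPM against 80.0 to 214 CPM. Foxj1, the regulator of motile cilia, was at 9.77 and 8.45 CPM against 11.7 to 41.2 CPM. The sum of 10 endothelium genes, 358 and 441 CPM, lay within the range of the other rats (329 to 446 CPM), and so did that of the blood list, 53.9 and 139 CPM within 37.3 to 227 CPM.

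These rats did not resemble each other in all markers. Rat 4 had 156 CPM over the list of 13 fibroblast genes of meninges and stroma and rat 5 had 743 CPM, below and above the other 16 rats (308 to 666 CPM). Col1a1, a fibrillar collagen chain, stood at 15.1 CPM in rat 4 and at 342 CPM in rat 5, against 25.3 to 48.2 CPM elsewhere. Over the 6 thalamus genes, the tissue beneath the hippocampus, the sums were 166 and 531 CPM against 167 to 1313 CPM. The sum of the hippocampal neuron markers was lower in rat 5 than in any other rat, with Camk2a, a kinase of excitatory synapses, at 547 CPM against 796 to 1588 CPM, and it lay within the range in rat 4 (Camk2a 1447 CPM). The part of these differences in the values of the choroid plexus genes was not tested.

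**Figure D2:**
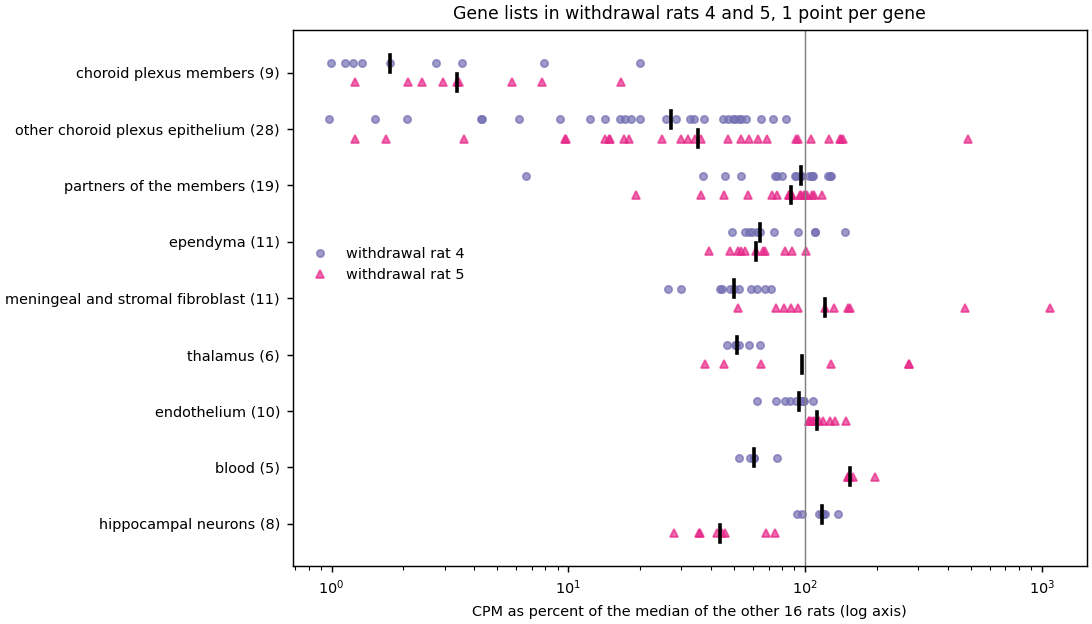
Level in withdrawal rat 4 (circles) and rat 5 (triangles) as percent of the median of the other 16 rats (horizontal log axis), for each tested gene of 9 lists (rows, number of genes in brackets), with the list median as a black bar. The 9 choroid plexus genes have medians of 1.76% and 3.39%, while the ependyma list has 64.4% and 61.8%.

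Across the rats the genes of the group rose and fell together. Because withdrawal rats 4 and 5 form a cluster of their own, correlations of log2 CPM with Ttr were computed over the other 16 rats. Sostdc1 had r = 0.99 and rho = 0.965, Folr1 r = 0.988 and rho = 0.985, Tmem72 r = 0.983 and rho = 0.959, and Clic6 r = 0.981 and rho = 0.947. Aqp1 followed with r = 0.969 and rho = 0.876, Kl with r = 0.962 and rho = 0.924, Kcne2 with r = 0.949 and rho = 0.797, and Slc4a5 with r = 0.947 and rho = 0.838. In 100000 permutations the p of r was 1e-05 for all 8 genes, the smallest value they can give, and the p of rho reached 0.00042 for Kcne2. With Benjamini-Hochberg adjustment over the 17852 genes set against Ttr, q was 0.00072 for r in all 8 and at most 0.0153 for rho. Since the genes were chosen with earlier results of these data known, p and q here and in the next paragraph are no independent test. These permutations also shuffled rats across groups and index sets. At q < 0.1, 1262 genes (7.07%) had a positive correlation with Ttr and 692 a negative one, and the median r of all genes was -0.01. Sostdc1 and Folr1 had the highest r of all genes, and Slc4a5 ranked lowest of the 8, at position 73.

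The relation held in narrower sets of rats. Without ethanol rat 1 and withdrawal rat 6, the 2 rats farthest from the median of Ttr among the 16, r ran from 0.909 for Kcne2 to 0.985 for Sostdc1. Within the 6 control rats r ran from 0.953 to 0.992, with an exact permutation p of 0.00278 to 0.00833. Within the 6 ethanol rats it ran from 0.932 to 0.995, with an exact permutation p of 0.00278 to 0.0833, the highest for Kl. In the 8 libraries of the second index set it ran from 0.927 to 0.99. The third set held 4 rats of the withdrawal group, too few for a value. Among all 36 pairs of the 9 genes, r over 16 rats ran from 0.933 (Kcne2 and Sostdc1) to 0.991 (Aqp1 and Slc4a5). On the log2 scale, the slope against Ttr lay between 0.887 for Aqp1 and 1.08 for Kl, where 1 means that both genes change by the same fold.

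**Figure D3:**
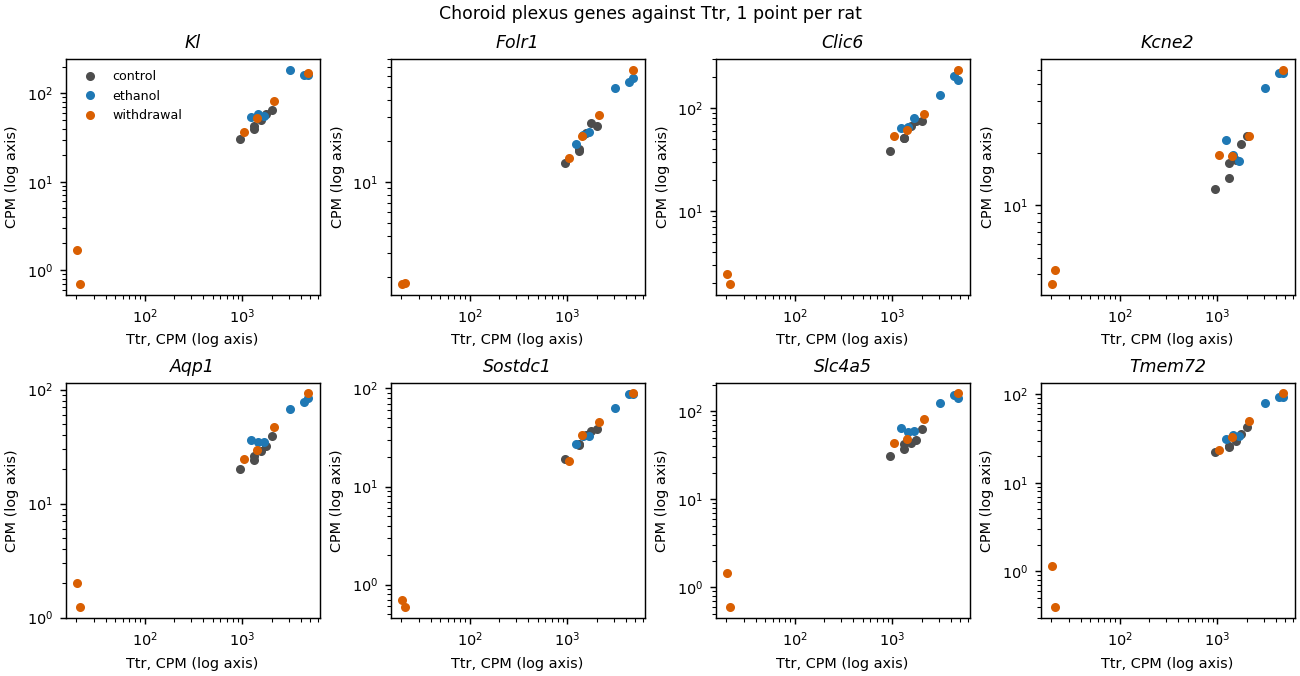
CPM of 8 choroid plexus genes (vertical log axes) against CPM of Ttr (horizontal log axes), with 1 point per rat, colored by group. The 16 rats other than withdrawal rats 4 and 5 lie along a line, with r from 0.947 to 0.99, and those 2 rats lie far to the lower left.

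Outside the group, the genes with the most similar pattern were found as follows. By the correlation with the mean z-score of the 9 genes over all 18 rats, which serves here as a ranking and includes the cluster of 2 rats, the first 10 were Mfrp, Cldn2, Slco1a5, an entry without a symbol (GeneID 108352772), Pla2g5, Mab21l4, Cltrn, Kcnj13, Enpp2 and Abca4. Of these, Cldn2, Kcnj13, Enpp2 and Abca4 were on the list of other epithelium genes. Over the 16 rats their r with Ttr ran from 0.944 for Kcnj13 to 0.986 for Slco1a5. Mfrp, a membrane protein of the frizzled-related type, had 41.0 to 200.1 CPM in the 16 rats and 3.07 and 5.06 CPM in rats 4 and 5. Kcnj13, an inwardly rectifying potassium channel, had 20.9 to 99.5 CPM and 1.54 and 3.45 CPM.

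Genes of the lists followed Ttr to different degrees over the 16 rats. Of the 28 other epithelium genes, 23 had a positive correlation at q < 0.1, and the median r was 0.944. The most abundant of them were Enpp2 (r = 0.982), Car12, a carbonic anhydrase (r = 0.855), and F5 (r = 0.95). Of 11 ependyma genes, 9 did so, with Cfap126 at r = 0.971 and Foxj1 at r = 0.942, and Rarres2 did not (r = -0.33, q = 0.53). Most ependyma genes therefore moved with Ttr among the 16 rats, while 8 of the 11 did not lie below those rats in rats 4 and 5.

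Of the 19 tested partners of the group (receptors, carriers and channel subunits that work with its members), 6 had a positive and 1 a negative correlation at q < 0.1. Among the positive ones were the anion exchanger Slc4a2 (r = 0.982), Kcnq1, the potassium channel that Kcne2 can modify (r = 0.918), the folate carrier Slc19a1 (r = 0.887), the chloride cotransporter Slc12a2 (r = 0.86) and the retinol transporter Stra6 (r = 0.86). Thrb, a thyroid hormone receptor, was negative (r = -0.67, q = 0.0401). The sodium pump subunit Atp1b1 (r = 0.0725) and the carbonic anhydrase Car2 (r = 0.613, q = 0.113) did not pass. None of the endothelium, blood, thalamus or hippocampal neuron genes passed, with list medians of r of 0.183, -0.50, 0.402 and -0.12, while in the fibroblast list Igf2 (r = 0.95) and Fmod (r = 0.733) did. Igf2, a growth factor made by both meninges and choroid plexus, had 120 to 408 CPM in the 16 rats and 46.9 and 92.7 CPM in rats 4 and 5.

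Relative to Ttr, the other genes varied less between the control rats than Ttr itself did. Per 1000 read pairs of Ttr there were 30.2 to 33.4 of Kl, 37.9 to 44.1 of Clic6, 27.4 to 32.6 of Slc4a5 and 19.3 to 21.5 of Sostdc1. The ranges were 12.8 to 15.6 for Folr1, 10.9 to 13.4 for Kcne2, 18.4 to 21.03 for Aqp1 and 19.01 to 23.3 for Tmem72. Over the 16 rats these ratios differed by 1.29-fold between the lowest and highest rat for Folr1 and by up to 2.0-fold for Kl, whereas Ttr itself differed by 4.93-fold. In the ethanol rats Slc4a5 had 29.95 to 52.0 (median 37.8) and Kl 32.8 to 60.2 (median 38.5), and for each gene 5 of 6 ethanol rats lay above every control rat. So did the 4 withdrawal rats other than rats 4 and 5, with 34.1 to 42.1 of Slc4a5 and 35.5 to 38.1 of Kl, so that 9 of these 10 ethanol and withdrawal rats lay above the control rats. The control group and its index set cannot be told apart here. The geometric mean ratio was 1.28-fold higher in ethanol than in control for Slc4a5 (exact permutation test, two-sided, p = 0.00866, n = 6 and 6) and 1.26-fold higher for Kl (exact permutation p = 0.00649). It was 1.13-fold higher for Clic6 (exact permutation p = 0.0195), and the other 5 ratios did not pass 0.05. Of these, Kcne2 was 1.11-fold (exact permutation p = 0.275), Aqp1 1.12-fold (exact permutation p = 0.212), Tmem72 1.10-fold (exact permutation p = 0.115), Folr1 1.01-fold (exact permutation p = 0.784) and Sostdc1 0.996-fold (exact permutation p = 0.92). These 8 tests are not adjusted.

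The ratio to Ttr assumes that both genes change by the same fold. A limma-voom model with the log2 level of Ttr in place of the surrogate variables asked a related question across all genes. This model, chosen after seeing the data, fitted a slope on Ttr for each gene and included the withdrawal rats. With all rats it called none of the other 8 genes between ethanol and control (46 genes or 0.258% called at q < 0.1), with Slc4a5 at a log2 fold change of 0.44 (SE 0.103, q = 0.109). Without withdrawal rats 4 and 5 it called Slc4a5 alone (log2 fold change 0.48, SE 0.0917, q = 0.0971; 0.0958% of all genes called). Withdrawal against control gave 0.38 for Slc4a5 in that model (SE 0.0955, q = 0.112). Slc4a5 is singled out here after its values were seen, and the index sets of control and ethanol rats differ.

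What was left of the group in withdrawal rats 4 and 5 had another composition. Per 1000 read pairs of Ttr they had 195 and 173 of Kcne2, against 10.7 to 19.3 in the other rats, and 83.2 and 87.3 of Folr1 against 12.4 to 16.0. Clic6 was at 90.9 and 122. Sostdc1, with 26.9 and 34.4, lay nearer to the other rats (17.6 to 23.2). For Kl and Slc4a5 the rats differed, with 32.01 and 26.9 in rat 4 and 82.0 and 70.1 in rat 5. These ratios rest on 781 and 756 counts of Ttr and on 14 to 152 counts of the other genes.

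**Figure D4:**
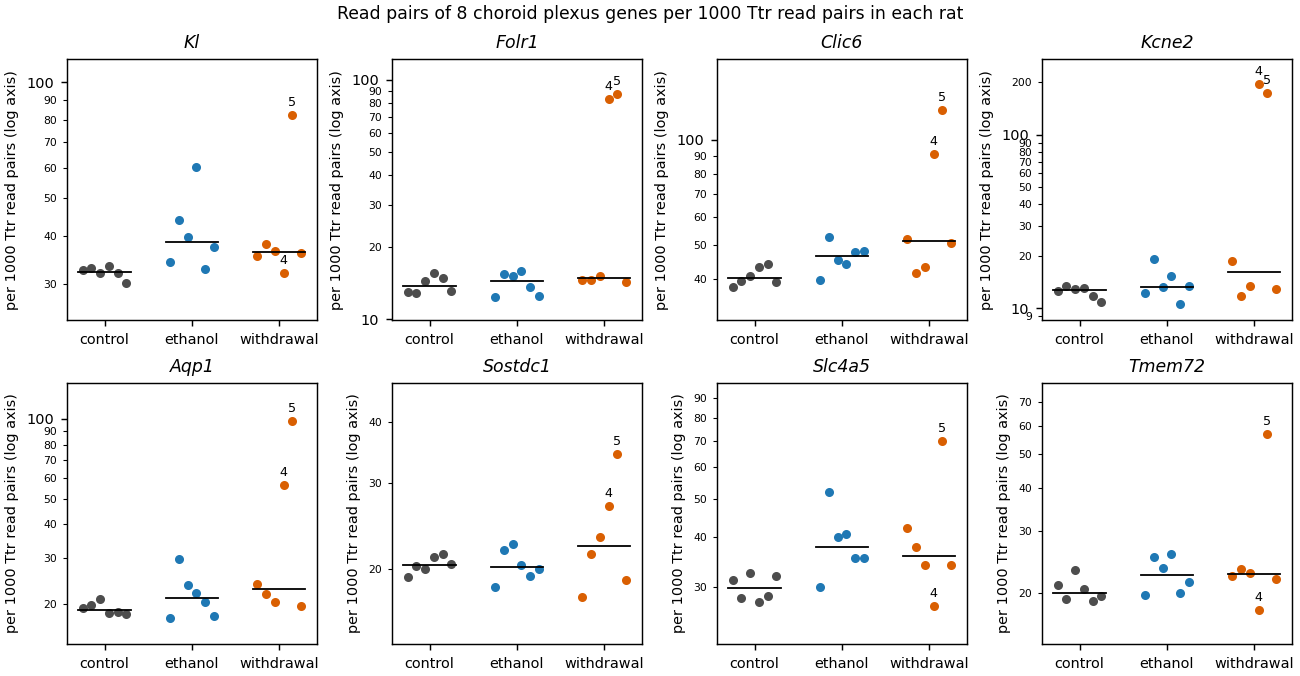
Read pairs of 8 choroid plexus genes per 1000 read pairs of Ttr (vertical log axes) in each rat, by group, with the group median as a black line and withdrawal rats 4 and 5 marked by number. Control rats lie at 27.4 to 32.6 for Slc4a5, and rats 4 and 5 lie far above the other rats for Kcne2 (195 and 173) and Folr1 (83.2 and 87.3).

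Between ethanol and control, all 9 genes had higher means in the ethanol rats. The ratio of mean CPM was 1.81 for Sostdc1 to 2.36 for Kl, and 3 to 4 of the 6 ethanol rats lay above every control rat. The difference in mean log2 CPM ran from 0.73 to 1.10, with a two-sided exact permutation p of 0.00649 for Slc4a5, 0.013 for Aqp1 and up to 0.0909 for Ttr (n = 6 and 6). The smallest p this design allows is 0.00216, and these are 9 of 27 unadjusted tests. In the limma-voom model of all 3 groups with 3 surrogate variables (unnamed sources of variation estimated from the data), 0 of 9 genes were called at q < 0.1, against 116 of 17853 genes (0.65%). Log2 fold changes there were -0.05 for Ttr (SE 0.22, q = 0.949) to 0.49 for Slc4a5 (SE 0.166, q = 0.231). Without surrogate variables they were 0.73 to 1.10, and again 0 of 9 were called, with q from 0.519 to 0.851 (0.33% of all genes called). Ttr reversed its sign between these models. Neither edgeR (0.347% of all genes called) nor DESeq2 (2.41%) called any of the 9, and 3 of 9 genes had an unadjusted p under 0.05 with surrogate variables, against 12.4% of all genes. Without withdrawal rats 4 and 5 the model with 3 surrogate variables gave 0.21 to 0.68 and called 0 of 9 genes (1.13% of all), and without ethanol rat 5 it called Kcne2 as higher (0.60, q = 0.0505; 1.46% of all).

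The surrogate variables took up most of the variation of the group. They accounted for 94.0% to 97.2% of the sum of squares of the 9 genes around their group means, compared with a median of 43.1% over all genes tested. These sums include withdrawal rats 4 and 5, with Ttr at 21.8 and 20.4 CPM against 1036 to 4679 CPM in the rest of their group. The share without these rats was not computed. With all rats the fitted fold changes with surrogate variables are therefore those of a small remainder, and both models are shown for each comparison.

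Between withdrawal and control, the direction depended on the summary and on rats 4 and 5. The ratio of mean CPM was 1.03 for Sostdc1 to 1.27 for Slc4a5, whereas the difference in mean log2 CPM was -0.32 for Kcne2 to -1.73 for Ttr, with exact permutation p of 0.37 to 0.654 (n = 6 and 6). Without rats 4 and 5 the 4 remaining withdrawal rats had a mean log2 CPM that was 0.43 to 0.75 higher than that of the control rats, with exact permutation p of 0.0857 to 0.381. With 3 surrogate variables 0 of 9 genes were called, against 983 genes (5.51%), 1 of 9 had an unadjusted p under 0.05 (19.8% of all genes), and log2 fold changes were -0.63 for Ttr (SE 0.214, q = 0.122) to 0.20 for Kcne2 (SE 0.159, q = 0.524). Without surrogate variables they were -1.75 to -0.26, q was 0.562 to 0.902 and 0.224% of all genes were called. Neither edgeR (0.218% of all genes called) nor DESeq2 (2.44%) called a gene of the group. Ttr alone was called, as lower, when withdrawal rat 2 or ethanol rat 5 was left out (log2 fold change -0.87 and -0.80, q = 0.0367 and 0.0839, with 10.8% and 6.17% of all genes called) and with the replicate number as a block (-0.70, q = 0.0636; 5.08%), and also with 4 surrogate variables (7.7%) and with a filter of 0.5 CPM in 6 rats (6.37%). Without rats 4 and 5 the model with 3 surrogate variables gave Ttr 0.46 (q = 0.47), called 0 of 9 genes and called 7 genes in all (0.0394%).

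Between withdrawal and ethanol, all 9 genes were lower in withdrawal by mean CPM, with ratios of 0.505 for Kl to 0.611 for Folr1. The difference in mean log2 CPM was -1.21 to -2.47, with exact permutation p of 0.104 to 0.177 (n = 6 and 6), and without rats 4 and 5 it was -0.24 to -0.44, with exact permutation p of 0.457 to 0.781. With 3 surrogate variables 0 of 9 genes were called, against 491 genes (2.75%), at log2 fold changes of -0.57 for Ttr (SE 0.24, q = 0.238) to -0.16 for Kcne2 (SE 0.17, q = 0.667). There, 4 of 9 genes had an unadjusted p under 0.05, against 16.8% of all genes, and neither edgeR (3.75% of all genes called) nor DESeq2 (8.08%) called any. Without surrogate variables the fold changes were -2.48 to -1.17, and 0 of 9 were called (3.44% of all genes). Single libraries changed this call. Without ethanol rat 5, 7 of 9 genes were called as lower, all but Sostdc1 and Tmem72, with Kcne2 at -0.50 (q = 0.0387), when 10.2% of all genes were. Without withdrawal rat 2, Ttr, Aqp1 and Slc4a5 were called, and 5.55% of all genes. Without rats 4 and 5 all 9 fold changes of this model were above 0, at 0.15 to 0.31, and none was called (1.24% of all genes). In the libraries of the second index set, withdrawal rats 1 and 2 had a Ttr level of 1036 and 2140 CPM, and the difference of their mean log2 CPM from that of the 6 ethanol rats was -0.69, with no test.

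**Figure D5:**
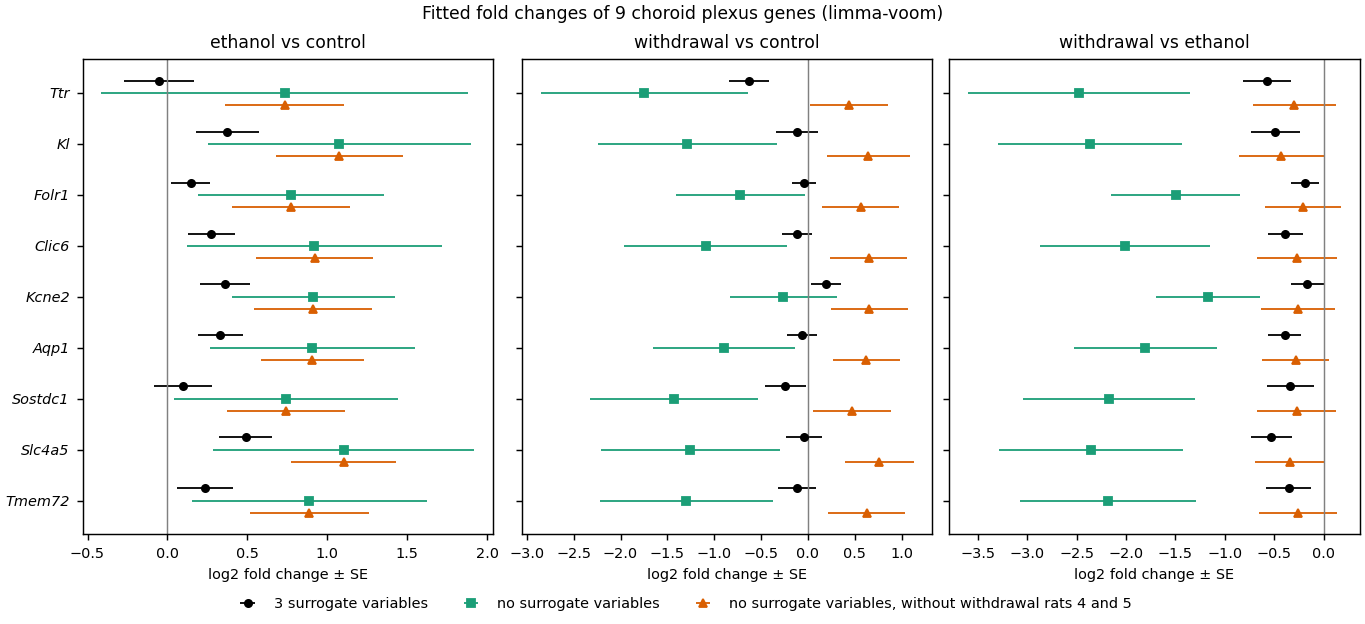
Log2 fold changes ± SE (horizontal axes) of 9 choroid plexus genes in 3 comparisons from limma-voom with 3 surrogate variables (black circles), without them (green squares), and without them and withdrawal rats 4 and 5 (orange triangles). Between withdrawal and control the fold changes without surrogate variables run from -1.75 to -0.26 with all rats and from 0.44 to 0.76 without rats 4 and 5.

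In the same model with 3 surrogate variables, 98 genes of the 8 other lists were tested, and 15 were called between withdrawal and control (5.51% of all genes were), 8 for ethanol against control (0.65%) and 1 for withdrawal against ethanol (2.75%). Without withdrawal rats 4 and 5, none of these 15 was called (q from 0.13 to 0.552, and 0.0394% of all genes called), although each kept its sign. The log2 fold change grew for some, as from 0.35 to 0.50 for Krt8, and shrank for others, as from -1.51 to -1.03 for Hbb. All 8 calls between ethanol and control remained. The values below are log2 fold changes with all rats and 3 surrogate variables, and higher and lower refer to them. Among the 28 other epithelium genes, with a median log2 fold change of 0.11 for withdrawal against control, 0.23 for ethanol against control and -0.11 for withdrawal against ethanol, Krt8, a keratin of simple epithelia, was higher in withdrawal than in control (0.35, SE 0.1001, q = 0.0774). Msx1, a homeobox gene, was higher in ethanol than in control (0.46, SE 0.0804, q = 0.0459) and lower in withdrawal than in ethanol (-0.33, q = 0.0735), the latter not without rats 4 and 5 (-0.12, q = 0.693). Among the 19 partners, the thyroxine transporter Slco1c1 (0.25, q = 0.0571) and the growth factor receptor Fgfr1 (0.26, q = 0.0917), with which klotho pairs, were higher in withdrawal than in control. Of 11 ependyma genes, Tmem212, Ccdc153 and Cfap126 were called as higher in withdrawal than in control, at 0.37, 0.40 and 0.41, and Tmem212 also in ethanol (0.50, q = 0.0956). The median levels of Krt8 and Cfap126 were lower in withdrawal than in control, at 6.17 against 6.94 CPM and 6.73 against 7.63 CPM. Those of Tmem212 and Ccdc153 were higher, at 5.74 against 4.79 CPM and 7.59 against 6.01 CPM. The median log2 fold change of all genes was 0.00384 for withdrawal against control and 0.0036 for ethanol against control, and that of the 9 choroid plexus genes was -0.11 and 0.27.

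Some markers of blood, endothelium and thalamus were called too. Of the 5 tested blood genes all 5 were lower in ethanol and all 5 lower in withdrawal than in control, with Hbb at medians of 85.2, 26.6 and 24.7 CPM in control, ethanol and withdrawal rats. Flt1, Pecam1, Kdr and Emcn, 4 of 10 endothelium genes, were called as higher in withdrawal than in control, at log2 fold changes of 0.28 to 0.60. Without rats 4 and 5 these and the 5 blood genes were not called between withdrawal and control. Flt1 was then at 0.17 (q = 0.552), against 0.28 with all rats, and Kdr at 0.53 against 0.60. Pecam1 was at 0.35 against 0.34, and Emcn at 0.37 against 0.34. Hbb was at -1.03 (q = 0.18), against -1.51 with all rats. All 5 blood genes remained lower in ethanol. Of the 6 thalamus genes Slc17a6, a glutamate transporter, was called as lower in ethanol than in control with 3 surrogate variables (-0.34, q = 0.0921). Its median level was higher in ethanol, at 127 CPM against 105 CPM in control. None of the fibroblast or hippocampal neuron genes was called in any comparison with all rats. Without rats 4 and 5, Col3a1, a fibrillar collagen chain, was higher in withdrawal than in ethanol (0.97, q = 0.0596), as was Ccdc153 in ethanol than in control (0.47, q = 0.0747). Their part in the differences of the choroid plexus genes was not tested.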

How the data were processed

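RNA-Seq was analysed from the dorsal hippocampus of 18 rats in 3 groups of 6, taken from the sample labels, as described above. Per the labels and the study's methods, the authors aligned paired-end reads to Rnor_6.0 (NCBI annotation 106) with STAR 2.5.2a and deposited raw counts, made with featureCounts 1.5.0 from exon overlaps with strand taken into account. Gene names came from a RefSeq table of GRCr8, which matched 29322 of 38445 identifiers. Sequences are from RefSeq.

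Counts were TMM-normalized with edgeR 4.0.16, and the 17853 genes above 0.5 CPM in 1 rat or more went into limma 3.58.1 (voom) in R 4.3.3, in one model of 3 groups with 3 surrogate variables from sva 3.50.0 on log2 CPM (prior count 2). Benjamini-Hochberg adjustment within each comparison gave q, with a threshold of q < 0.1. Single values were compared by two-sided exact permutation tests, and correlations by 100000 permutations, with scipy 1.17.1, numpy 2.4.6 and pandas 2.3.3 in Python 3.11.15 (plots, matplotlib 3.10.9). The limma-voom model was tested on simulated counts with known changes.

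The 10 genes and all lists were chosen with earlier results of these data known. Named are all 10 genes, the 3 most abundant genes and any called gene of the other lists where they are described, and the 10 genes closest to the group. Others were named after their values were seen. Some genes of the lists are not reported here. Alternatives were 0, 2 or 4 surrogate variables, edgeR, DESeq2 1.42.0, other scalings and filters, q < 0.05, 2 groups alone, a replicate block and leaving out each rat. Models without withdrawal rats 4 and 5 (gene lists included) or with Ttr as a covariate were chosen after seeing the data. The correlation, planned over 18 rats, is given over 16 because rats 4 and 5 form a separate cluster.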

Additional observations from a re-analysis of the deposited data

How the results depend on the processing

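The number of choroid plexus genes called was 0 of 9 in each comparison with 3 surrogate variables. Between withdrawal and control it was 1 (Ttr) with 4 surrogate variables (-0.82, q = 0.0871; 7.7% of all genes called), with a filter of 0.5 CPM in 6 rats (-0.76, q = 0.0999; 6.37%) and with the replicate block and 3 surrogate variables, and 0 to 1 when single rats were left out. Between ethanol and control it was 0 to 1 without single rats (Kcne2, without ethanol rat 5) and 1 (Slc4a5) with the Ttr covariate and without withdrawal rats 4 and 5. Between withdrawal and ethanol it ranged from 0 to 7 without single rats. The 8 correlations with Ttr passed q < 0.1 under every alternative run, but apart from the one without rats 4 and 5, each kept at least 1 of these rats and says nothing on the values over 16 rats. Over the 16 rats less any 1, r was 0.933 to 0.994.

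The log2 fold change of Ttr between withdrawal and control (-0.63) reversed to 0.0642 with DESeq2, 0.0704 with edgeR, and 0.46 and 0.44 without rats 4 and 5 (3 and no surrogate variables). Between ethanol and control (-0.05) it reversed to 0.73 without surrogate variables and with 2 groups alone, 0.71 with the replicate block without surrogate variables, 0.0631 with 4 surrogate variables, 0.89 with DESeq2, 0.90 with edgeR, 0.0093 with no filter, and 0.21 and 0.73 without rats 4 and 5. Between withdrawal and ethanol (-0.57) it reversed to 0.25 without rats 4 and 5 and with 3 surrogate variables. Without single rats these 3 ranged from -0.87 to -0.16, from -0.20 to 0.11 and from -0.87 to -0.03.

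The log2 fold change of Slc4a5 between withdrawal and control (-0.04) reversed to 0.17 with 2 surrogate variables, 0.33 with DESeq2, 0.34 with edgeR, 0.12 with no filter, 0.33 and 0.38 with the Ttr covariate (with and without rats 4 and 5), and 0.84 and 0.76 without these rats (3 and no surrogate variables). Between withdrawal and ethanol it reversed to 0.15 without these rats and with 3 surrogate variables. Without single rats it ranged from -0.32 to 0.21 between withdrawal and control. The causes were not tested.

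The study states that rats were pair-fed, and the labels do not say whether the replicate numbers follow those pairs. The deviations of same-numbered rats correlated between -0.32 and 0.08 (withdrawal and control), -0.26 and 0.33 (ethanol and control) and -0.31 and 0.38 (withdrawal and ethanol). In these comparisons 0, 3 and 1 of 6 rats correlated best with their own number. With 6 rats per group these values cannot decide whether the numbers pair the rats. With the block, genes called between withdrawal and ethanol fell from 491 to 1, and between ethanol and control from 116 to 33. Genes called between withdrawal and control were 983 with 3 surrogate variables, 40 without, 435 with DESeq2 and 39 with edgeR. The lowest count of the 9 genes was 14, in withdrawal rat 4, where counting error is large, and Otx2 cannot be compared at 0 to 2 counts.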
